A study of Mus musculus with 4 samples.

Results

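RNA of the medial nasal process was compared with RNA of the mandibular process in wild-type (WT) mouse embryos at e11.5. Each process gave 1 library, of mixed cell types. Genes were taken when they reached 5 CPM (counts scaled to a library of 1000000 gene counts) in either library and lay at least 2-fold apart after 0.5 CPM was added to both levels. Of 43346 genes, 12218 reached 5 CPM, and 686 of these were 2-fold apart (5.61%). The level was higher in the medial nasal process for 477 genes, which is 3.9% of those that reached 5 CPM, and higher in the mandibular process for 209 genes, or 1.71%. These 2 values chose the genes, so the difference between both processes is described here and not tested.

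Both libraries were made from freshly dissected tissue as stranded total RNA after removal of ribosomal RNA, and the sources used here do not say how many embryos each came from or of which strain. The medial nasal sample is called so in its title and tissue, while the abbreviation in brackets beside that tissue is the one of the lateral nasal process. Libraries of the lateral nasal and maxillary processes of WT embryos of the same age, also 1 each, played no part in the choice of genes and serve below as further measurements, although they may come from the same embryos. The medial nasal library held 13216190 counts and the mandibular library 13680323, so that 5 CPM stand for 66.08 counts in the medial nasal and 68.4 in the mandibular library. Intervals are exact (Clopper-Pearson) 95% intervals of a ratio of counts. They cover counting error only, since no process had a replicate.

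The medial nasal processes flank the midline of the embryonic face, lie next to the olfactory pits and the forebrain, and form the middle of the nose and upper lip. The mandibular process is the lower part of the first pharyngeal arch and forms the lower jaw, with muscle that arises from the mesoderm in the core of the arch. In both, most of the mesenchyme comes from neural crest cells, and transcription factors of the homeobox and basic helix-loop-helix families give that mesenchyme its position in the face. In bulk tissue, fewer cells of a type and less RNA per cell cannot be told apart.

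The 5 genes taken as markers of both tissues were all at least 2-fold apart. Hand2, a basic helix-loop-helix factor of the distal first arch, had 0 counts in the medial nasal library and 1386 in the mandibular library, and was at least 446-fold lower in the medial nasal process when 3 counts are taken as the limit of a 0. Alx1, a homeobox factor of the frontonasal mesenchyme, stood at 272 CPM in the medial nasal and 38.4 CPM in the mandibular library, 7.08-fold higher (interval 6.46 to 7.77). Sp8, a zinc finger factor of the nasal and olfactory epithelium, had 19.9 CPM in the medial nasal library against 0 counts in the mandibular library. Actc1, the cardiac actin that embryonic skeletal muscle also makes, was at 0.605 CPM in the medial nasal and 41.7 CPM in the mandibular library. Sox9, a factor of neural crest cells and the cartilage lineage, reached 116 CPM in the medial nasal and 31.3 CPM in the mandibular library, 3.698-fold higher (interval 3.32 to 4.13).

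**Figure D1:**
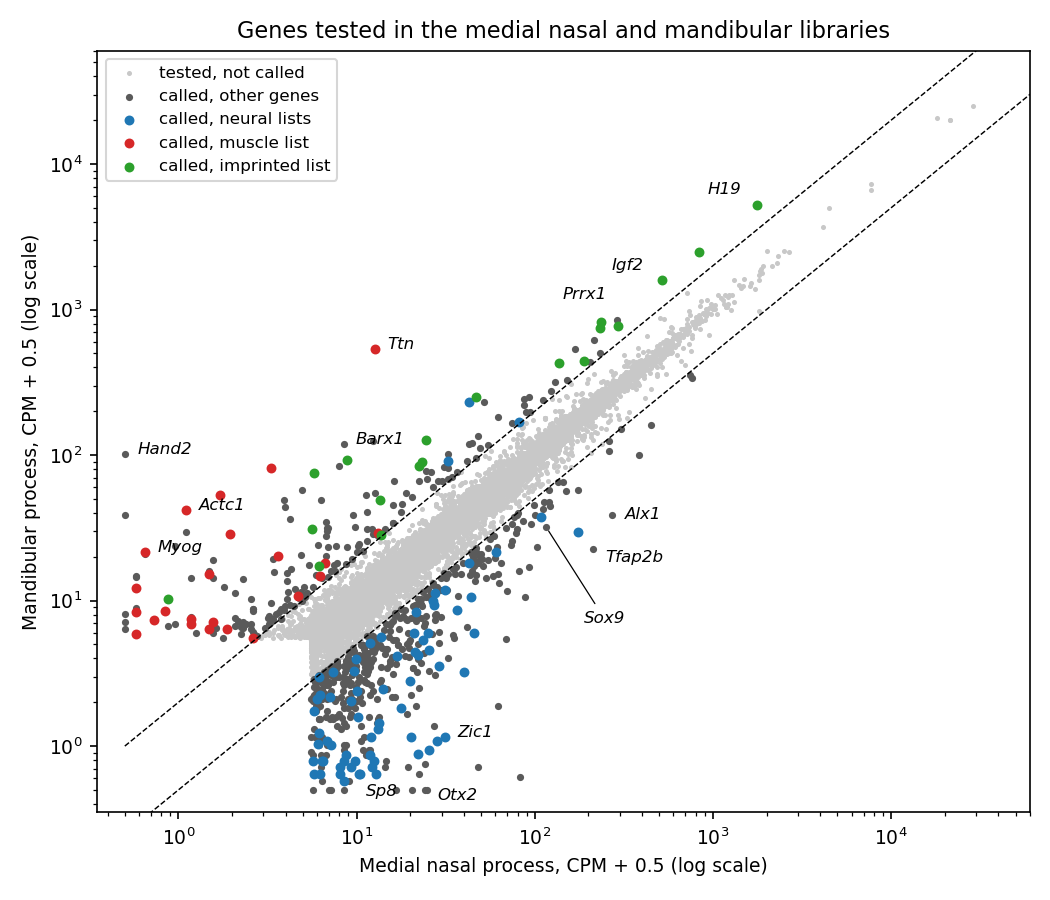
Level of each of 12218 genes in the medial nasal library (horizontal axis) and in the mandibular library (vertical axis), in CPM plus 0.5 on log scales, with dashed lines at a 2-fold difference. The 477 genes below the lower line include all 67 genes of the neural lists that were higher in the medial nasal process, and the 209 genes above the upper line include all 23 muscle and all 19 imprinted list genes that were called.

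Genes of 3 groups were set apart from the rest by lists. Neural genes made up 67 of the 477 genes higher in the medial nasal process (14.0%) and 3 of the 209 higher in the mandibular process (1.44%). Muscle genes numbered 0 among the 477 and 23 among the 209 (11.0%), and imprinted list genes 0 among the 477 and 19 among the 209 (9.09%). The other 410 genes of the medial nasal and 164 of the mandibular side belong to none of these groups. Among all genes that reached 5 CPM, 0.851% were on the neural lists, 0.327% on the muscle list and 0.499% on the imprinted list. Genes higher in the medial nasal process mostly had low levels, with a median of 12.0 CPM in that library and 22 genes at 100 CPM or more. Those higher in the mandibular process had a median of 22.9 CPM there, and 39 reached 100 CPM. Over all 12218 genes, the higher of the 2 levels had a median of 34.5 CPM, and 2435 genes reached 100 CPM. At least 4-fold differences were seen in 175 of the 477 and in 69 of the 209.

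Several patterning genes of the distal first arch were lower in the medial nasal process. Endothelin signalling through Ednra acts upstream of Dlx5 and Dlx6, and these act upstream of Hand2 in the lower jaw. Dlx6 stood at 9.31 CPM in the medial nasal and 31.7 CPM in the mandibular library, and Dlx5 at 6.96 CPM in the medial nasal and 17.2 CPM in the mandibular library, which is 3.41-fold and 2.47-fold lower in the medial nasal process. Ednra itself differed little, with 85.96 CPM in the medial nasal and 80.5 CPM in the mandibular library, and its ligand gene Edn1 was below 1 CPM in both. Gsc, a homeobox factor downstream of Dlx5 and Dlx6, was at 5.83 CPM in the medial nasal and 48.8 CPM in the mandibular library, 8.38-fold lower (interval 6.61 to 10.8). Hand1, the paralogue of Hand2, had 1 count in the medial nasal library and 8.33 CPM in the mandibular library, a ratio of 110.1 with an interval of 19.4 to 4388. The RNAs beside Hand2 went with it. Hand2os1 had 2 counts in the medial nasal and 280 in the mandibular library, and 5033428I22Rik had 1 count in the medial nasal and 196 in the mandibular library. Of 12 distal first arch genes that reached 5 CPM, 0 were higher in the medial nasal process, beside 3.9% of all genes. In the mandibular process 7 were higher (58.3%, beside 1.71%). The median log2 difference was -1.05 against 0.02 over all 12218 genes. Msx1 and Msx2, homeobox genes of the same list, were on the other side of 0 without reaching 2-fold, at 196 CPM for Msx1 in the medial nasal and 113 CPM in the mandibular library.

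Genes of the oral mesenchyme, which is shared by the upper and lower jaw, were the larger group of mandibular factors. Of 20 listed genes, all at 5 CPM or more, 15 were higher in the mandibular process and 2 in the medial nasal process, with a median log2 difference of -1.89. Barx1, a homeobox gene of the molar field and stomach, stood at 7.94 CPM in the medial nasal and 118 CPM in the mandibular library, 14.9-fold lower (interval 12.2 to 18.3). The LIM homeobox genes Lhx6 and Lhx8, which act together in tooth and palate mesenchyme, differed 12.5-fold and 4.21-fold. Lhx6 was at 3.48 CPM in the medial nasal and 43.6 CPM in the mandibular library. Dlx1 and Dlx2, the Dlx genes expressed along the whole first arch, were 11.1-fold and 3.68-fold lower in the medial nasal process, and Dlx1as, an antisense RNA at the same locus, was at 1.300 CPM in the medial nasal and 11.9 CPM in the mandibular library. Pitx1, a homeobox gene of the lower jaw and hindlimb, had 11.8 CPM in the medial nasal and 124 CPM in the mandibular library, 10.5-fold lower. Sim2, Osr1, Meox2 and Tbx15 were also lower in the medial nasal process, by 17.6-fold, 12.9-fold, 7.45-fold and 4.84-fold. Prrx1, a homeobox gene of limb and facial mesenchyme, was abundant in both, at 288 CPM in the medial nasal and 851 CPM in the mandibular library, with a smaller difference of 2.95-fold (interval 2.85 to 3.06). Against the list, Pou3f3 was higher in the medial nasal process at 148 CPM, with 56.2 CPM in the mandibular library, and the X-linked palate gene Tbx22 was 2.14-fold higher.

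**Figure D2:**
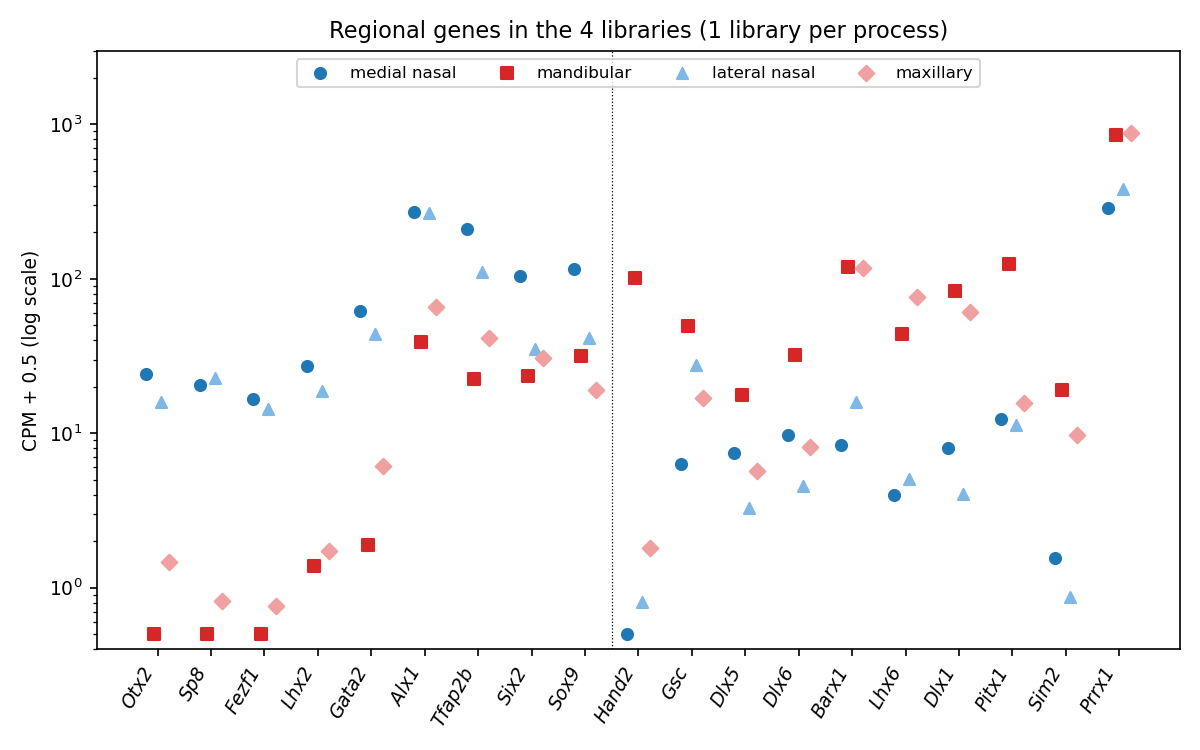
CPM plus 0.5 (log scale) of 19 regional genes in each of the 4 libraries, as single points without error bars, since no process had a replicate. Genes left of the dotted line were higher in the medial nasal process and genes right of it in the mandibular process. Hand2 stood at 1.30 CPM or less in the other 3 libraries, while Barx1, Lhx6 and Dlx1 were high in the maxillary library too.

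The factors of the frontonasal mesenchyme were the counterpart on the medial nasal side. Of 17 listed genes that reached 5 CPM, 8 were higher in the medial nasal process (47.1%, beside 3.9% of all genes). In the mandibular process 1 was higher (5.88%, beside 1.71%), and the median log2 difference was 0.94. Alx4, a relative of Alx1, was abundant in both, at 285 CPM in the medial nasal and 209 CPM in the mandibular library, and was not 2-fold apart. Tfap2b, an AP-2 factor of neural crest cells, was at 211 CPM in the medial nasal and 22.00 CPM in the mandibular library, 9.59-fold higher (interval 8.52 to 10.8), and Tfap2a was 5.15-fold higher. Six2, a homeobox gene of the nasal mesenchyme, had 103 CPM in the medial nasal and 22.95 CPM in the mandibular library. The paired box genes Pax7 and Pax9 were 6.299-fold and 2.47-fold higher in the medial nasal process, and Pax3 was 1.94-fold higher, just under the threshold. Crabp1, which binds retinoic acid in the cell, was among the most abundant of the 477 genes at 386 CPM in the medial nasal and 99.6 CPM in the mandibular library. The exception was the ephrin receptor gene Epha3, at 86.1 CPM in the medial nasal and 219.7 CPM in the mandibular library.

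Genes of the olfactory placode and pit included several at or near 0 in the mandibular library. Otx2, a homeobox factor of the forebrain and the olfactory region, had 314 counts in the medial nasal and 0 in the mandibular library, at least 108-fold higher. Fezf1, a zinc finger factor of the olfactory epithelium, had 214 counts in the medial nasal and 0 in the mandibular library, at least 73.8-fold higher. Gata2 was at 61.3 CPM in the medial nasal and 1.39 CPM in the mandibular library, 44.1-fold higher (interval 28.1 to 73.7), and the LIM homeobox gene Lhx2 at 26.7 CPM in the medial nasal and 0.877 CPM in the mandibular library. Pax6, which the nasal placode needs, stood at 10.8 CPM in the medial nasal library and had 5 counts in the mandibular library. Acsm4, an enzyme gene of the olfactory epithelium, had 18.9 CPM in the medial nasal library and 3 counts in the mandibular library, a ratio of 86.3 (interval 29.2 to 421). In all, 15 of 25 listed genes that reached 5 CPM were higher in the medial nasal process and 2 (Dlx6 and Ebf3) in the mandibular process, with a median log2 difference of 2.08. Emx2, just outside the threshold, was 2.07-fold higher (interval 1.47 to 2.96) before 0.5 CPM was added. Six3os1, a noncoding RNA beside Six3, showed the same contrast with 47.5 CPM in the medial nasal library and 3 counts in the mandibular library. Epithelial genes moved in part with this group. Krt8, Krt18, Epcam, Cldn3, Cldn6 and Cldn7 were among 8 of 31 that were higher in the medial nasal process (25.8%, beside 3.9% of all genes). Krt8, for example, was at 51.00 CPM in the medial nasal and 16.8 CPM in the mandibular library. Of the same 31 genes, 3 were higher in the mandibular process (9.68%, beside 1.71%). Krt15 (6.205 CPM in the medial nasal and 27.3 CPM in the mandibular library) and the connexin genes Gjb2 and Gjb6 were higher in the mandibular process, and the basal keratinocyte gene Trp63 was at 37.7 CPM in the medial nasal and 39.5 CPM in the mandibular library. The summed level of the epithelial list was 667 CPM in the medial nasal and 488 CPM in the mandibular library, and its part in the olfactory differences was not tested.

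Neural genes were the largest of the 3 groups set apart. Of 24 genes of neural progenitors and brain regions that reached 5 CPM, 18 were higher in the medial nasal process (75.0%, beside 3.9% of all genes). In the mandibular process 0 were higher (beside 1.71%), and the median log2 difference was 2.5. Zic1, a zinc finger factor of the dorsal neural tube and periocular mesenchyme, was at 30.7 CPM in the medial nasal and 0.658 CPM in the mandibular library. Sox1 and Hes5, 2 factors of neural progenitors, had 8.02 and 7.56 CPM in the medial nasal library and 4 and 3 counts in the mandibular library. En2, a homeobox gene of the boundary between midbrain and hindbrain, had 76 counts in the medial nasal and 2 in the mandibular library, and its genomic neighbour Cnpy1 had 100 in the medial nasal and 2 in the mandibular library. Among 75 neuronal genes that reached 5 CPM, 48 were higher in the medial nasal process (64.0%, beside 3.9% of all genes). In the mandibular process 3 were higher (4.0%, beside 1.71%), and the median log2 difference was 1.51. Elavl3, an RNA-binding protein of young neurons, stood at 27.6 CPM in the medial nasal and 0.585 CPM in the mandibular library, 47.2-fold higher (interval 23.7 to 110.2). Tubb3, the neuronal tubulin, was at 174 CPM in the medial nasal and 29.2 CPM in the mandibular library, 5.95-fold higher, and Stmn2 at 39.3 CPM in the medial nasal and 2.705 CPM in the mandibular library. The transmitter genes Slc17a6 (glutamate transport) and Gad2 (synthesis of GABA) reached 9.99 and 8.78 CPM in the medial nasal library and had 2 and 3 counts in the mandibular library. The 3 that went the other way, Mab21l1, Mab21l2 and Ebf3, are also genes of the facial mesenchyme.

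Of the 67 neural genes, 66 had their highest level of all 4 libraries in the medial nasal one, beside 400 of all 477 genes chosen for a high level there, and 30 were below 1 CPM in the mandibular library. The summed level of the progenitor list was 676 CPM in the medial nasal and 292 CPM in the mandibular library, with 381 CPM in the lateral nasal and 351 CPM in the maxillary library. The lists do not hold every neural gene, as Dmbx1 and Nr2e1, 2 brain transcription factor genes named after their values were seen, had 6.66 and 6.51 CPM in the medial nasal library and 0 counts in the mandibular library. Most listed genes of the peripheral glia were not 2-fold apart. Sox10 was at 4.09 CPM in the medial nasal and 2.997 CPM in the mandibular library. Among 5 Schwann cell precursor genes that reached 5 CPM, only Mbp was higher in the medial nasal process, at 20.96 CPM, with 7.82 CPM in the mandibular library. How much of the neural RNA came from the olfactory pit and how much from adjoining brain was not tested.

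Some of the medial nasal genes hold microRNAs. The mature miRNAs were not measured, and the values are those of the longer host RNA. Gm13648 contains the hairpins of miR-200a, miR-200b and miR-429, the family known for its role in epithelial cells. It was named after its values were seen, and had a level of 7.26 CPM in the medial nasal and 0.877 CPM in the mandibular library (8.28-fold higher, interval 4.53 to 16.6). C130071C03Rik overlaps the hairpin of miR-9, a miRNA of neural progenitors, and was at 23.6 CPM in the medial nasal and 0.251 CPM in the mandibular library, although its count is uncertain because the deposited estimates of it differ by 10% or more. Mir124-2hg, a host of the neuronal miR-124, had 13.9 CPM in the medial nasal library and 3 counts in the mandibular library. The RefSeq sequences of GRCm38.p6 are shown with the seed (bases 2 to 8) in capitals, since miR-200b and miR-429 share it and miR-200a differs from them in it.
mmu-miR-200b-3p: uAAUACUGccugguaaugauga
mmu-miR-429-3p: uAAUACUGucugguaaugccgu
mmu-miR-200a-3p: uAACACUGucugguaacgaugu
mmu-miR-9-5p: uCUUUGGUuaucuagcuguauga

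All called genes of skeletal muscle were higher in the mandibular process. Of 40 listed genes that reached 5 CPM, 23 were higher there (57.5%, beside 1.71% of all genes). In the medial nasal process 0 were higher (beside 3.9%), and the median log2 difference was -1.22. The muscle regulatory factor genes Myog and Myod1 had 2 counts and 1 count in the medial nasal library, against 290 and 108 in the mandibular library, and their relative Myf5, which did not reach 5 CPM, had 1 count against 53. Ttn, the giant spring protein of the sarcomere, was at 12.1 CPM in the medial nasal and 538 CPM in the mandibular library, 44.4-fold lower (interval 37.97 to 52.3), and made up more than any other gene of the group. Myh3, the embryonic myosin heavy chain, stood at 1.21 CPM in the medial nasal and 52.7 CPM in the mandibular library, and Neb, the ruler of the thin filament, at 2.800 CPM in the medial nasal and 80.9 CPM in the mandibular library. Des, the muscle intermediate filament, and Cdh15, a cadherin of myoblasts, were 6.34-fold and 14.9-fold lower in the medial nasal process. Tbx1, an upstream factor of the muscle progenitors of the arch, was 4.29-fold lower. The 23 genes summed to 58.8 CPM in the medial nasal and 944 CPM in the mandibular library, a contrast that the choice of genes partly fixes. They summed to 75.1 CPM in the lateral nasal and 357 CPM in the maxillary library. The whole muscle list, called or not, summed to 909 CPM in the medial nasal and 1804 CPM in the mandibular library. Its sum was 804 CPM in the lateral nasal and 1182 CPM in the maxillary library. All 23 were highest in the mandibular one, as were 172 of all 209 genes chosen for a high level there. Acta2, the smooth muscle actin that embryonic skeletal muscle also makes, was named after its value was seen, at 3.405 CPM in the medial nasal and 48.98 CPM in the mandibular library.

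Motifs of muscle transcription factors were sought on both strands of the RefSeq promoter windows (GRCm38.p6), from the 250 bases before each start. The called muscle genes had 19 windows, of 17 genes, and the others had none. The E-box CAGCTG, bound by factors of the Myod1 family, was in 5 of these 19 windows (26.3%), against 13% of all 32851 windows. The CArG box of serum response factor was in 2 of the 19 (10.5%, against 1.47%) and the MEF2 site in 3 (15.8%, against 2.92%). The homeodomain core TAATTA was in 5.25% of windows of genes higher in the medial nasal process and in 5.08% of those higher in the mandibular process, beside 4.84% of all. Such a match is a description of the letters and not of a bound site. The windows of the muscle genes Myog, Myh3, Tnnt1 and Cdh15 held none of these motifs. The windows of Actc1, Des and Ttn, 3 genes of the contractile apparatus, are shown 5′ to 3′ on the strand of the gene because each holds another of these motifs, in capitals: a CArG box at -47 in Actc1 (chr2:114052876-114053125, minus strand), CAGCTG at -36 in Des (chr1:75360042-75360291, plus strand) and a MEF2 site at -166 in Ttn (chr2:76982548-76982797, minus strand).
Actc1: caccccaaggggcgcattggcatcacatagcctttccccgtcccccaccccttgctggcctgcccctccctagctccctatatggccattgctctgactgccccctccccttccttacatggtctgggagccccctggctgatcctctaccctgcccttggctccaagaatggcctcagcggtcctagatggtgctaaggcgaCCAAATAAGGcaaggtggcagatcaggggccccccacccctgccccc
Des: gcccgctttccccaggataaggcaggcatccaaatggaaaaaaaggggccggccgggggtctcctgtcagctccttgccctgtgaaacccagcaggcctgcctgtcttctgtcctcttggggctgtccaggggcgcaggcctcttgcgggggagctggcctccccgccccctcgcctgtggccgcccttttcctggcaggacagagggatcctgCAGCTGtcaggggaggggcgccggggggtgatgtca
Ttn: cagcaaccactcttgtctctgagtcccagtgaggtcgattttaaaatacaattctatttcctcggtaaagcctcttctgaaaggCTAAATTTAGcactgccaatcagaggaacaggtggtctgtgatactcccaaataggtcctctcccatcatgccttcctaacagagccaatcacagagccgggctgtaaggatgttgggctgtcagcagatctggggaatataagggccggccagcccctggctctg

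Imprinted genes, which are transcribed from the maternal or the paternal copy alone, included the most abundant RNAs of the mandibular set. Of 61 listed genes that reached 5 CPM, 19 were higher in the mandibular process (31.1%, beside 1.71% of all genes). In the medial nasal process 0 were higher, beside 3.9% of all genes. Rtl3, an X-linked gene that is not known as imprinted, was on this list in error, and without it the count was 18 of 60, with 45 below 0 and a median log2 difference of -0.27. H19, a maternally expressed noncoding RNA, was at 1775 CPM in the medial nasal and 5249.7 CPM in the mandibular library, 2.96-fold lower (interval 2.91 to 3.002). Its neighbour Igf2, the paternally expressed growth factor, was at 514 CPM in the medial nasal and 1591 CPM in the mandibular library, 3.09-fold lower (interval 3.01 to 3.18), and so differed in the same direction as H19. Cdkn1c, a maternally expressed inhibitor of the cell cycle, had 236 CPM in the medial nasal and 816 CPM in the mandibular library. Peg3, a paternally expressed zinc finger gene, had 829.8 CPM in the medial nasal and 2485 CPM in the mandibular library, and its neighbour Zim1 was 11.1-fold lower. Peg10 and Asb4, on chromosome 6, were 2.62-fold and 5.25-fold lower in the medial nasal process.

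Imprinted clusters differed in extent. In the Dlk1-Dio3 domain on chromosome 12, all 5 genes that reached 5 CPM were higher in the mandibular process, with log2 differences between -2.42 and -1.67. Dlk1, which encodes a membrane protein of the Notch ligand family, stood at 46.1 CPM in the medial nasal and 249 CPM in the mandibular library, and the noncoding RNAs Meg3 and Rian at 136 and 232 CPM in the medial nasal library, against 432 and 744 CPM in the mandibular library. With 3 further noncoding entries, this domain formed the longest run of neighbours in the set, 8 genes from Dlk1 to Mirg (chr12:109452823-109749460). All 3 genes of the Igf2-H19 domain and 2 of 3 of the Peg3 domain were called, as were 2 of 6 in the Peg10 domain. Called were also 1 of 6 in the Kcnq1 domain, 1 of 7 in the Snrpn domain and 0 of 2 in the Gnas and in the Grb10 domain. The Mest domain had 1 of 3 genes called, with a lowest log2 difference of -3.55, and the Igf2r domain 1 of 2. Over all 12218 genes, 1.71% were called higher in the mandibular process. Kcnq1ot1 was at 1065 CPM in the medial nasal and 1253 CPM in the mandibular library, and Grb10 at 1906 CPM in the medial nasal and 1987 CPM in the mandibular library. The 18 called imprinted genes were highest of the 4 libraries in the mandibular one (beside 172 of all 209). They summed to 4364 CPM in the medial nasal and 13295 CPM in the mandibular library, and to 3928 CPM in the lateral nasal and 4697 CPM in the maxillary library. The choice of genes partly fixes both results. The whole imprinted list, called or not and with Rtl3, summed to 11588 CPM in the medial nasal and 22260 CPM in the mandibular library. Its sum was 10607 CPM in the lateral nasal and 11602 CPM in the maxillary library.

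**Figure D3:**
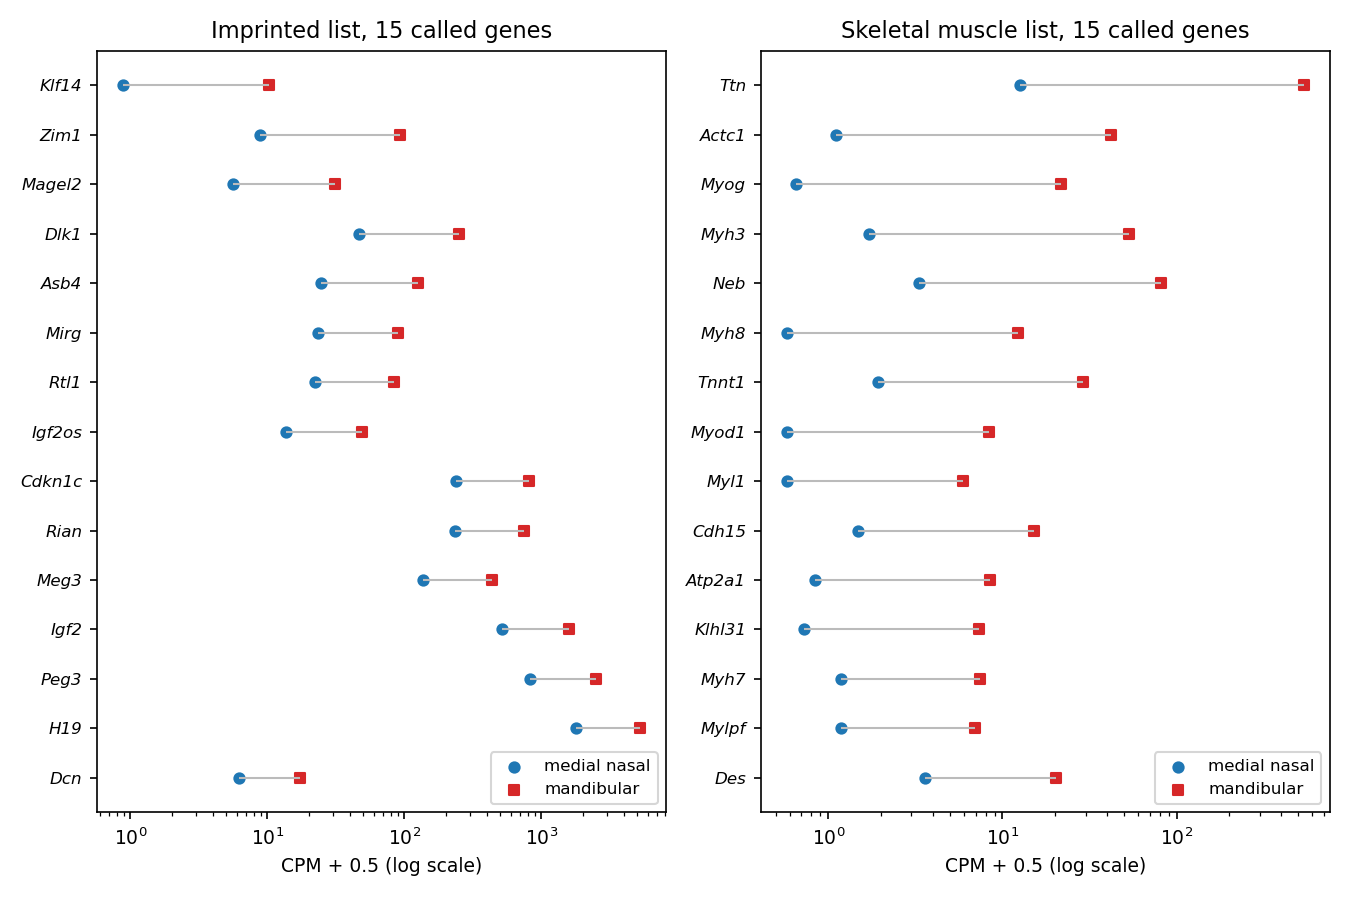
CPM plus 0.5 (log scale) of the 15 called imprinted genes (left) and the 15 called skeletal muscle genes (right) with the largest fold difference, in the medial nasal (circles) and mandibular (squares) library, 1 library each. Every one of these genes is higher in the mandibular library, and H19 reaches 5250 CPM there.

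Host RNAs of miRNAs were in this group too. Mirg, at 22.9 CPM in the medial nasal and 89.2 CPM in the mandibular library, holds 14 annotated hairpins, and Rian holds 3. H19 holds miR-675, and Myh7, a myosin heavy chain gene at 0.681 CPM in the medial nasal and 6.92 CPM in the mandibular library, holds miR-208b. Again the host RNA and not the mature form was measured. The sequences are RefSeq entries of GRCm38.p6 with the seed in capitals, 1 each from these 4 hosts, and no seed is shared among them.
mmu-miR-410-3p (Mirg): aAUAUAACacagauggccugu
mmu-miR-370-3p (Rian): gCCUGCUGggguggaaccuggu
mmu-miR-675-5p (H19): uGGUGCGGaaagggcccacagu
mmu-miR-208b-3p (Myh7): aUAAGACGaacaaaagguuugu

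Genes of the X chromosome were 17 of the 209 higher in the mandibular process (8.13%) and 11 of the 477 higher in the medial nasal process (2.31%), beside 3.52% of all 12218 genes. Gpr50, a receptor related to the melatonin receptors, was at 0.454 CPM in the medial nasal and 23.1 CPM in the mandibular library, 50.9-fold lower (interval 23.1 to 139.7), and Rtl3 was 14.2-fold lower. Amot, which regulates the Hippo pathway, and Capn6, a calpain without protease activity, were abundant, at 215 and 167 CPM in the medial nasal library, against 619 and 536 CPM in the mandibular library. Nrk, a kinase gene named after its value was seen, was 4.502-fold lower in the medial nasal process. The X-linked genes higher in the medial nasal process included the neural list genes Dcx, L1cam, Pou3f4 and Syp. Xist stood at 1639.6 CPM in the medial nasal and 1513 CPM in the mandibular library, and Ddx3y, on the Y chromosome, at 28.6 CPM in the medial nasal and 42.5 CPM in the mandibular library, so RNA of both sexes was present in both.

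Among 23 FGF pathway genes that reached 5 CPM, 7 were higher in the medial nasal process (30.4%, beside 3.9% of all genes) and 2 in the mandibular process (8.7%, beside 1.71%). The ligand gene Fgf17 was at 8.17 CPM in the medial nasal and 0.877 CPM in the mandibular library, Fgf8 at 6.205 CPM in the medial nasal and 2.34 CPM in the mandibular library, and the mesenchymal ligand gene Fgf10 at 7.04 CPM in the medial nasal and 15.6 CPM in the mandibular library. The FGF targets Etv4 and Etv5 were not 2-fold apart, with 83.99 CPM of Etv5 in the medial nasal and 65.9 CPM in the mandibular library. Il17rd, of the same list, was called higher in the medial nasal process and was among the 10 most abundant genes called there. Flrt2 and Flrt3, related membrane proteins that bind FGF receptors and guidance receptors, went opposite ways, with Flrt2 at 763 CPM in the medial nasal and 335 CPM in the mandibular library and Flrt3 at 93.7 CPM in the medial nasal and 198 CPM in the mandibular library. Of 51 Wnt pathway genes, 6 were higher in the medial nasal process (11.8%) and 2 in the mandibular process (3.92%). Wnt5a, the main ligand of noncanonical Wnt signalling in the face, was at 446 CPM in the medial nasal and 161 CPM in the mandibular library, 2.76-fold higher (interval 2.63 to 2.904), and Wnt11 at 0.757 CPM in the medial nasal and 5.46 CPM in the mandibular library.

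Of 14 retinoic acid genes that reached 5 CPM, 3 were higher in the medial nasal process (21.4%, beside 3.9% of all genes). In the mandibular process 0 were higher, beside 1.71% of all genes. Aldh1a3, which makes retinoic acid in the nasal region, was at 32.2 CPM in the medial nasal and 3.51 CPM in the mandibular library, 9.17-fold higher (interval 6.79 to 12.6), whereas Aldh1a2 was at 30.7 CPM in the medial nasal and 52.9 CPM in the mandibular library and was not called. BMP genes were 2 in each direction of 32 (6.25% each, beside 3.9% and 1.71% of all genes). Among them was Id4, a target of BMP signals, at 21.3 CPM in the medial nasal and 2.705 CPM in the mandibular library. The ligand gene Bmp4 was at 41.01 CPM in the medial nasal and 29.1 CPM in the mandibular library. Of 15 genes on the hedgehog list, only Sostdc1 was called (6.67%, beside 1.71% of all genes). Sostdc1 encodes a secreted antagonist of BMP signals and is also on the BMP list, and no other gene of the hedgehog list was called. Its level was 2.44-fold lower in the medial nasal process. The hedgehog target Ptch1 was at 165 CPM in the medial nasal and 233 CPM in the mandibular library. Of 50 axon guidance genes, 4 were higher in each process (8.0% each, beside 3.9% and 1.71% of all genes). The netrin receptor gene Dcc was at 34.5 CPM in the medial nasal and 5.04 CPM in the mandibular library. Foxc1, a forkhead gene of the periocular mesenchyme, was the only 1 of 11 forkhead genes called (9.09%, beside 3.9% of all genes). Its level was 61.97 CPM in the medial nasal and 14.8 CPM in the mandibular library. Hoxa2, the selector gene of the second arch, had 0 counts in the medial nasal library and 91 in the mandibular library, at least 29.3-fold lower, and was the only 1 of 33 Hox genes to reach 5 CPM.

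Of 21 cartilage and bone genes, 3 were higher in the medial nasal process (14.3%, beside 3.9% of all genes). In the mandibular process 2 were higher (9.52%, beside 1.71%), and the median log2 difference was 0.01. These 2, Barx1 and Dlx5, are patterning genes that also stand on the oral mesenchyme and the distal first arch list. Besides Sox9, its partner gene Sox5 was at 110.4 CPM in the medial nasal and 42.3 CPM in the mandibular library, and the link protein gene Hapln1 at 22.8 CPM in the medial nasal and 8.63 CPM in the mandibular library. Col2a1, the collagen of cartilage, was 1.68-fold higher, under the threshold, and the osteoblast factor gene Runx2 was at 33.9 CPM in the medial nasal and 48.1 CPM in the mandibular library. Col6a3 and Postn, which encode matrix proteins of connective tissue and were named after their values were seen, were at 92.8 and 86.7 CPM in the medial nasal library, against 248 and 241 CPM in the mandibular library. Of 17 endothelial, 12 erythroid and 5 leukocyte genes that reached 5 CPM, 0 were called, beside 5.61% of all genes, and the endothelial genes summed to 429 CPM in the medial nasal and 450 CPM in the mandibular library.

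**Figure D4:**
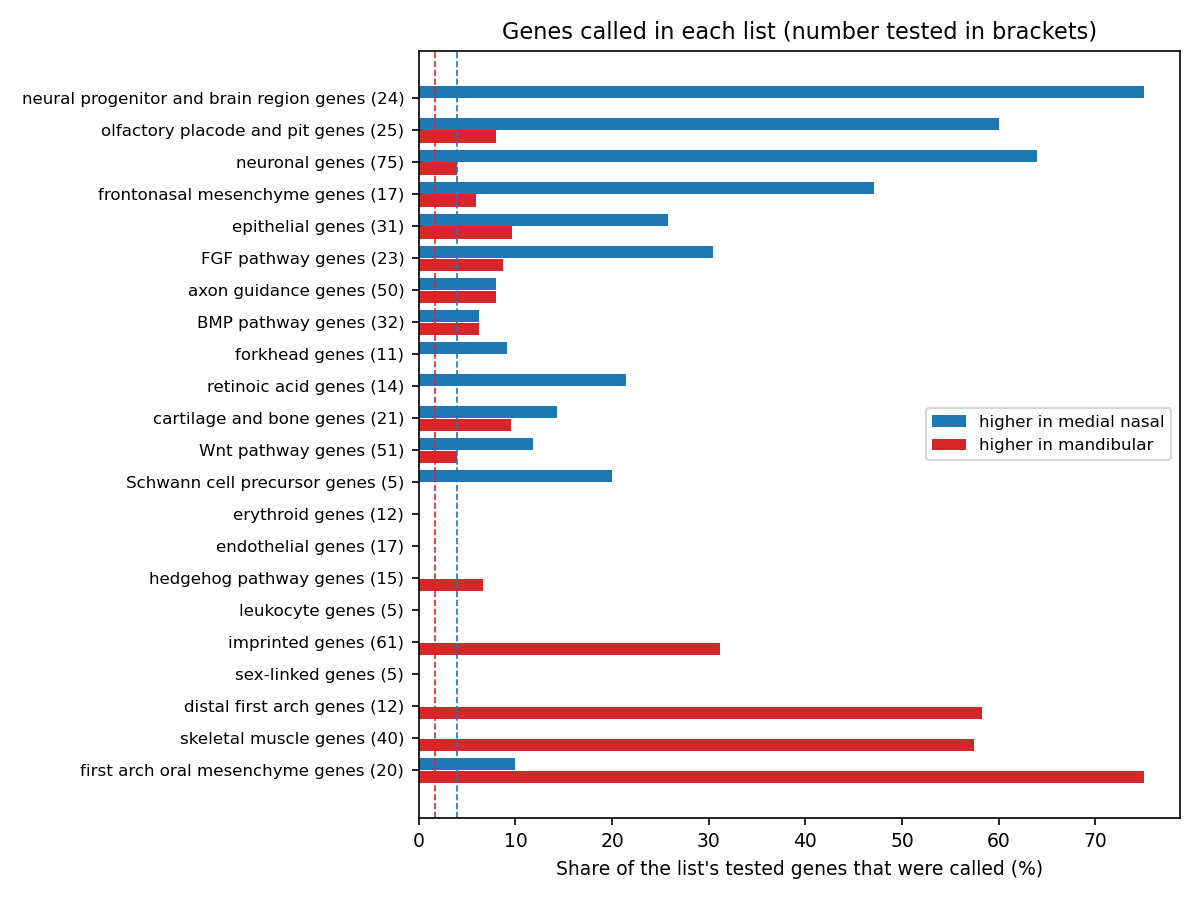
Share of each list's genes at 5 CPM or more that were at least 2-fold higher in the medial nasal (upper bar, blue) or mandibular (lower bar, red) library, with the number of genes in brackets and dashed lines at the shares over all 12218 genes (3.9% and 1.71%). Neural and olfactory lists lie at the top and muscle and jaw mesenchyme lists at the bottom, while endothelial, erythroid and leukocyte lists have no bar.

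The lateral nasal and maxillary libraries gave measurements that the choice of genes had not used. Of the 477 genes higher in the medial nasal process, 344 reached 5 CPM in at least one of them, and 147 of these (42.7%) were 2-fold higher in the lateral nasal than in the maxillary process while 3 (0.872%) were 2-fold lower. Of the 12218 genes, 11669 reached 5 CPM in at least one of these libraries. Of these, 1.66% were 2-fold higher in the lateral nasal process and 0.934% were lower there. Over all 11865 genes at 5 CPM in either of these libraries, 1.85% were higher in the lateral nasal process, 1.09% were lower there, and 2.93% were either. The median log2 difference of the 344 genes was 0.85, and 311 lay above 0. Of the 209 genes higher in the mandibular process, 147 reached 5 CPM in the lateral nasal or maxillary library, with 2 higher in the lateral nasal process (1.36%), 52 higher in the maxillary process (35.4%) and a median log2 difference of -0.64. The 2, Gm14288 and ENSMUSG00000090234, have uncertain counts. All 3 genes on the medial nasal side that were higher in the maxillary process were neural or next to each other on chromosome 1: Fabp7, and Pou3f3 with its noncoding neighbour Pantr1. Pou3f3 was at 23.6 CPM in the lateral nasal and 190.0 CPM in the maxillary library.

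**Figure D5:**
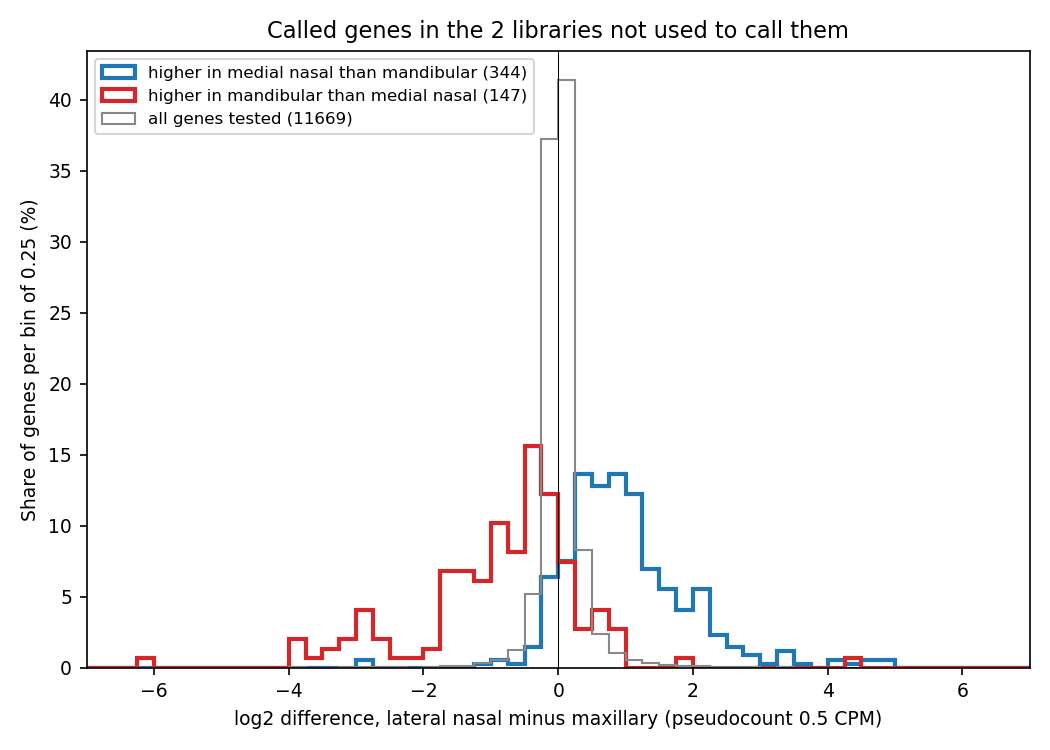
Distribution of the log2 difference, lateral nasal minus maxillary, for genes higher in the medial nasal process (344), genes higher in the mandibular process (147) and all of the 12218 genes that reached 5 CPM in either of these libraries (11669), as a share of genes per bin of 0.25. The first group has its median at 0.85, the second at -0.64 and all genes at 0.02.

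Values of the gene groups in these libraries follow. Of the 23 muscle genes higher in the mandibular process, 13 reached 5 CPM in either of these libraries. Of these 13, 11 were higher in the maxillary process. Ttn, for example, was at 28.5 CPM in the lateral nasal and 185 CPM in the maxillary library. Among the 29 muscle list genes that reached 5 CPM in both comparisons, 12 were higher in the maxillary and 1 in the lateral nasal process. Their median log2 difference was -0.36. Of the 19 imprinted list genes higher in the mandibular process, 16 reached 5 CPM in either of these libraries. Of these 16, 2 were higher in the maxillary process and 14 lay below 0, with a median log2 difference of -0.25. Among the 55 imprinted list genes that reached 5 CPM in both comparisons, 2 were higher in the maxillary process and 34 lay below 0. Their median was -0.06, and 5275 of all 11669 genes lay below 0. H19 was at 1952 CPM in the lateral nasal and 2334 CPM in the maxillary library, and Dlk1 at 20.9 CPM in the lateral nasal and 34.6 CPM in the maxillary library. The difference between the lists was not tested. The distal first arch list summed to 468 CPM in the lateral nasal and 443 CPM in the maxillary library. Hand2 (0.309 CPM in the lateral nasal and 1.300 CPM in the maxillary library) was low in both. Gsc was at 27.2 CPM in the lateral nasal and 16.4 CPM in the maxillary library. Lhx6, of the oral mesenchyme, was at 4.52 CPM in the lateral nasal and 75.7 CPM in the maxillary library. On the nasal side Sp8 stood at 22.1 CPM in the lateral nasal library and 0.325 CPM in the maxillary library, and Pax7 at 113 CPM in the lateral nasal and 4.03 CPM in the maxillary library. Among brain region genes, En2 and Hes5 were below 1 CPM in both. Of the 67 neural genes higher in the medial nasal process, 8 were below 1 CPM in the lateral nasal library and 18 in the maxillary library.

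The threshold and the unit bear on the count. The genes just inside 2-fold were Coq8a, Mapk11 and Sox13 on the medial nasal side and A630012P03Rik, Fndc1 and Prr16 on the mandibular side, and those just outside were Gadd45a, Pik3cd and Cyb561, and Nos1, Mbnl3 and Irx1. Coq8a was at 5.29 CPM in the medial nasal and 2.39 CPM in the mandibular library, with a log2 difference of 1.001. The lower bound of the counting interval lay at 2-fold or more for 337 of the 477 and 149 of the 209 genes. With the deposited TPM (a length-corrected level) in place of CPM, 237 genes were higher in the medial nasal and 204 in the mandibular process, so that 53.7% of calls fell on the medial nasal side, against 69.5% with CPM. Of the 477 and 209 genes called with CPM, 156 and 127 were called again with TPM. The median transcript length was 3339 bases for the 477 genes and 3002 for the 209, and only 188 of the 477 and 130 of the 209 reached 5 TPM. Without a pseudocount, the ratio of TPM was at least 2 for 449 of the 477 and 205 of the 209. With the posterior mean count of the same files, 470 and 203 were called again.

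Some of the largest differences rest on counts that the deposited estimates place differently. Counts of 11 of the 477 and 8 of the 209 genes are uncertain by the 10% rule. The largest is mt-Co3, a mitochondrial gene with copies in the nuclear genome, at 81.8 CPM in the medial nasal and 0.116 CPM in the mandibular library by the expected count, which by the posterior mean count had a log2 difference of -0.22. The RNA entries Gm24924 (24.2 CPM in the medial nasal library and 0 counts in the mandibular library) and Gm26244 (0 counts in the medial nasal library and 38.1 CPM in the mandibular library) are uncertain likewise. The sources used here do not say whether counting used the strand, so values of antisense partners such as Dlx1as, Igf2os and Airn may share reads with the genes they overlap.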

How the data were processed

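Per the submitters' processing notes and the study's methods, the authors aligned reads to mm10 with STAR and estimated counts per gene with RSEM 1.4.1 and GENCODE M4 annotations, without pooling replicates. The deposited values used are the expected counts, which are not normalized, the posterior mean counts and the deposited TPM, each per gene. Reads that match several genes are divided among them by RSEM, which can move counts between near-identical copies.

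Counts were used as deposited, rounded for intervals, and scaled to CPM over the 43346 gene rows. Left out were 26248 rows that carry only a number (1 to 5 counts per library) and 96 spike-in rows (0 counts). Symbols came from GENCODE M21 on GRCm38 by gene ID (42462 matched, 884 did not), promoter and miRNA sequences from RefSeq tables of GRCm38.p6 (promoters for 332 of 477 and 138 of 209 genes). 3 counts, the limit of a 0, are 0.227 CPM in the medial nasal and 0.219 CPM in the mandibular library. Called genes were those at 5 CPM in either library and 2-fold apart with a pseudocount of 0.5 CPM, and a gene's count was uncertain where the posterior mean and expected counts differed by 10% or more. With 1 library per process, no test across replicates and no p-value could be had.

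The genes and lists were chosen with earlier results of these data known, so list counts are descriptions. Named were list genes, the 15 protein-coding and 5 noncoding genes with the largest difference and the 10 most abundant in each direction, the 3 on each side of the threshold, and genes with uncertain counts. Exceptions are marked in the text, and some list genes are not reported here. Of 909 list symbols, 897 matched. A list gene can stand on several lists; 11 called genes do. Alternatives were TMM factors (edgeR 4.0.16), size factors (DESeq2 1.42.0), the total over protein-coding genes, TPM, posterior mean counts, a pseudocount of 0.1 or 2, a minimum of 1 or 20 CPM or no minimum, 3-fold in place of 2-fold, and uncertain genes left out. The TPM ratio without a pseudocount and the imprinted list without Rtl3 were added after the data were seen. The scripts were tested on simulated data. Computations used Python 3.11.15, pandas 2.3.3 and scipy 1.17.1.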

Additional observations from a re-analysis of the deposited data

Results flagged for a closer look

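Entries that carry only a number and belong to no gene comparison held 1 count in the medial nasal library and 4 in the mandibular library. The lateral nasal library had 4 such counts and the maxillary library 5. Apart from the medial nasal one, these lie just above the 3 counts that a 0 allows, and they are given as values only.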

How the results depend on the processing

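No paired analysis was possible because each process had 1 library. All differences rest on 1 library against 1, so the spread between embryos is unknown and counting intervals are too narrow for it. Of 36 counts of genes under alternatives, 23 stayed within 1.5 times the main count. A lower or higher minimum and a larger fold change by construction how many genes can be called; for TPM, where the same minimum and pseudocount also weigh differently, the cause was not tested.

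In place of 477 genes, those higher in the medial nasal process numbered 237 with deposited TPM, 887 with a minimum of 1 CPM, 162 with 20 CPM, 1018 with none and 248 at 3-fold. In place of 209, those higher in the mandibular process numbered 372 with 1 CPM, 109 with 20 CPM, 423 with none and 101 at 3-fold. Genes of the medial nasal side higher in the lateral nasal than the maxillary process were 66 with TPM and 75 at 3-fold, and genes of the mandibular side higher in the maxillary process were 32 with TPM and 30 at 3-fold.

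With TPM the median log2 difference was 0.38 for frontonasal, 0.81 for olfactory, 1.20 for neural progenitor, 0.80 for neuronal, 0.29 for Schwann cell precursor and -2.44 for muscle genes. With a pseudocount of 2 it was 1.599 for olfactory, 1.79 for neural progenitor and 1.28 for neuronal genes. With a minimum of 20 CPM it was -0.74 for distal first arch, 0.69 for frontonasal, 0.78 for olfactory, 1.32 for neural progenitor, 1.24 for neuronal, 0.87 for Schwann cell precursor and -0.037 for axon guidance genes. With 1 CPM it was 2.19 for neural progenitor and -0.11 for retinoic acid genes, and with none 0.72 for frontonasal and 1.73 for neural progenitor genes. The other 233 medians, none of them from the 3-fold threshold, which does not enter a median, stayed within a wide range. It runs from the median lower bound to the median upper bound of the single genes' counting intervals, and is no interval of the list median. Signs could change within it. Leukocyte genes, for example, had a median of -0.20, which was 0.30 with a minimum of 1 CPM and 0.23 with none. With TMM factors the median of all genes was -0.01, against 0.02, and 463 genes were called higher in the medial nasal and 220 in the mandibular process. Of the log2 differences of named genes under alternatives, 1451 were classed as the same, 326 as moved and 2 as reversed. H19, for example, moved from -1.56 to -1.60 with TMM factors. Among named genes, mt-Co3 had a log2 difference of -0.22 and Gm24924 of -0.48 with posterior mean counts, the opposite of the main direction. The cause was not tested.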
